A study of Homo sapiens with 9 samples.

Results

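Genes of the lysosome were examined in PC9, a cell line from a human lung adenocarcinoma, after knockdown of ALKBH5, the enzyme that removes the methyl group of N6-methyladenosine from RNA. The genes were a fixed list of lysosomal hydrolases and their activator, membrane and lipid transfer proteins and the transcription factor TFEB, to which every gene whose symbol starts with ATP6V0 or ATP6V1 was added, that is, the subunits of the vacuolar proton pump (V-ATPase). Of 48 such genes, 46 were measured among 17687 genes with a symbol, 27 of the list and 19 pump subunits, each by 1 transcript cluster, the group of probes that stands for a gene on the Clariom S array. NPC2 and NEU1 were not analysed here. The rule for the list used gene symbols and no measured difference between groups, but the genes were chosen with earlier results of these data known. The 9 arrays made 3 groups of 3, all taken 96 h after transfection with 15 nM siRNA: siALKBH5#3 and siALKBH5#1, which have different sequences against ALKBH5, and siControl, a negative control siRNA. The comparisons ask which genes change when ALKBH5 is lowered, and having 2 siRNAs shows whether a change appears with another sequence against the same target. The knockdown was transient, in 1 cell line. The replicates are labelled biological, but whether they were separate cultures is not stated, so the p-values speak only for the spread among these arrays, which may be technical.

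Lysosomes are acidic compartments in which proteases, glycosidases, lipases and nucleases break down material delivered by endocytosis and autophagy. The V-ATPase acidifies them: its V1 sector hydrolyses ATP in the cytosol, and its V0 sector carries protons across the membrane. Many genes of this system share a short promoter element, the CLEAR element with the core CACGTG, that TFEB and its relatives bind when they enter the nucleus. In tumour cells, secreted cathepsins are also known to cut the extracellular matrix.

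ALKBH5 intensities were 56.81, 30.04 and 34.77 with siALKBH5#3, 111.86, 96.71 and 112.75 with siALKBH5#1 and 2815, 3308 and 2361 with siControl, and all 6 knockdown arrays lay far below siControl. The fitted ratios were 71.8-fold lower (95% CI 52.1 to 99.0, limma adjusted p = 4.23e-08) with siALKBH5#3 and 26.2-fold lower (95% CI 19.0 to 36.1, adjusted p = 6.49e-07) with siALKBH5#1. The knockdown signals lay at the 31.01 to 42.13 percentile of an array's clusters with siALKBH5#3 and at the 49.12 to 50.79 percentile with siALKBH5#1, and no detection call was used, so the exact size of these ratios is uncertain. The values are RMA intensities, linear fluorescence values after background correction and normalization between arrays, and their median lay between 102.7 and 105.2 on the 9 arrays. Log2 values of all clusters correlated at 0.9939 to 0.997 between arrays of a group and at 0.9876 to 0.9925 between arrays of different groups, with no array far from its group. All 7 epithelial markers lay at or above the 90.3 percentile of an array's clusters in each group mean, and of these CDH1 and KRT7 were lower with siALKBH5#1. Of 11 macrophage and other immune markers, 10 lay under the median cluster in each group. Summed over 5 endothelial markers, intensity was 244.41 to 272.88 with siALKBH5#3, 208.52 to 239.01 with siALKBH5#1 and 299.51 to 393.21 with siControl, with PECAM1 lower with both siRNAs and CDH5 lower with siALKBH5#1. In RNA from whole cultures of this 1 cell line, fewer cells expressing a gene and less of its RNA per cell cannot be told apart.

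In all, 16 of the 46 lysosomal genes were called against siControl with at least 1 siRNA, against 4393 of 21448 clusters (20.5%). They were 6 cathepsins, 4 membrane proteins, 3 other hydrolases and 3 subunits of the pump. With siALKBH5#3, 12 of the 46 genes passed the test (26.1%), 8 higher and 4 lower than siControl, against 15.8% of all clusters (8.72% higher, 7.04% lower). With siALKBH5#1, 9 of 46 passed (19.6%), 7 higher and 2 lower, against 8.07% of all clusters (4.51% higher, 3.56% lower). After quantile normalization the split was 7 higher and 6 lower with siALKBH5#3 and 6 higher and 3 lower with siALKBH5#1. Of all clusters, 1736 were then higher and 1637 lower with siALKBH5#3, and 863 higher and 838 lower with siALKBH5#1. A gene was called where limma, fitted to all 9 arrays, gave a Benjamini-Hochberg adjusted p under 0.05 over all clusters. Median log2 fold changes of the 46 genes were 0.09 with siALKBH5#3 and 0.14 with siALKBH5#1, whereas those of all clusters were -0.02 and -0.01. Lysosomal genes are mostly well expressed, and bright clusters were called more often: among clusters at or above the median level, 26.6% were called with siALKBH5#3 and 13.3% with siALKBH5#1. Of the 40 lysosomal genes at that level, 11 (27.5%) and 9 (22.5%) were called, so that the share for siALKBH5#3 was near its background.

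The siRNAs had some of these changes in common. CTSB, CTSH and MCOLN1 were higher and ATP6V1A was lower with each siRNA, 4 genes in all, and GLA was called in opposite directions. Over all clusters, 2.29% were called with both siRNAs in the same direction and 1.06% in opposite directions, and the comparisons share the 3 siControl arrays. A further 7 genes were called with siALKBH5#3 alone (ATP6V0A2, ATP6V1B1, CTSZ, LAMP1 and SMPD1 higher, CTSC and LIPA lower) and 4 with siALKBH5#1 alone (CD68, CTSL and NPC1 higher, CTSS lower). A call with 1 siRNA does not show a difference between them: LAMP1 and CD68 did not pass the direct test between the siRNAs (adjusted p = 0.206 and 0.0934). The remaining 30 genes were not called with either. Of these calls, those of GLA, CTSC, CTSZ, SMPD1, LAMP1, ATP6V0A2, CD68, CTSL, CTSS and NPC1, and those of CTSB, CTSH and ATP6V1A with siALKBH5#3, passed under every refitted limma alternative, including each array left out in turn. The siALKBH5#1 calls of the 4 shared genes did not, as given with each gene. With siALKBH5#1 the count itself depended on the setting: 17 genes were called with an intensity trend and a robust prior together, 18 of 40 with dim clusters left out, and 16 with an offset of 16 added before log2. Over all clusters 1731 of 21448 were called as reported, and 2604 of 21448, 2471 of 11111 and 2376 of 21448 under these settings. The cause was not tested. Without replicate 3 of siALKBH5#1, 5 of the 46 genes and 1051 of all clusters were called.

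**Figure D1:**
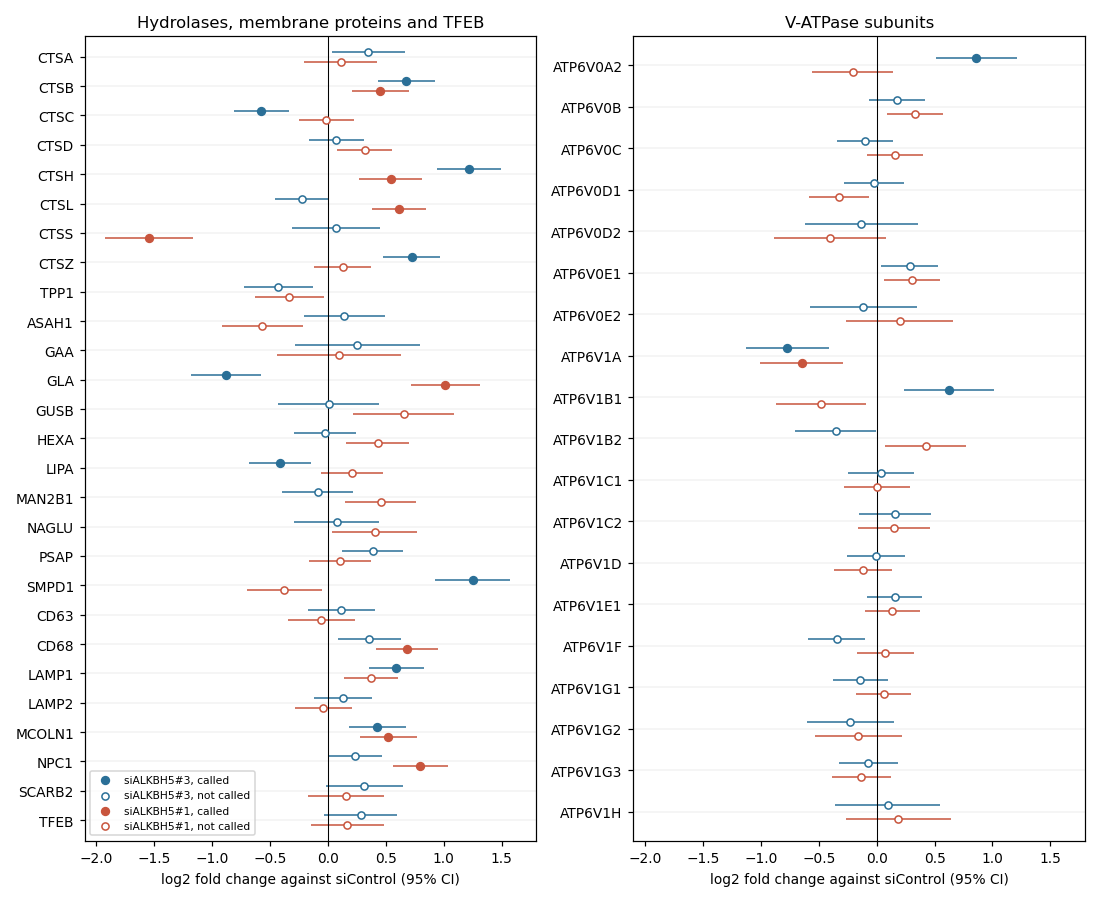
Log2 fold changes of the 46 lysosomal genes against siControl (x axis) with 95% confidence intervals, siALKBH5#3 in blue above siALKBH5#1 in red, filled where called. Of 27 hydrolases, membrane proteins and TFEB, 9 are filled in blue and 8 in red, and of 19 V-ATPase subunits, 3 in blue and 1 in red.

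Of 9 lysosomal proteases, 3 were higher and 1 lower with siALKBH5#3, and likewise 3 and 1 with siALKBH5#1, but only 2 of them, CTSB and CTSH, were the same genes. The share called was 44.4% with each, against 15.8% of all clusters with siALKBH5#3 and 8.07% with siALKBH5#1. All 9 lay at or above the median level, where 26.6% and 13.3% of clusters were called. CTSH (cathepsin H, an aminopeptidase; GRCh38.p14 chr15:78921058-78945046) had intensities of 1533, 1819 and 1552 with siALKBH5#3, 1001, 1002 and 1061 with siALKBH5#1 and 755, 748 and 613 with siControl. The 3 groups did not overlap, and siALKBH5#3 stood highest. The gene was 2.32-fold higher (95% CI 1.92 to 2.81, adjusted p = 8.18e-05) with siALKBH5#3 and 1.45-fold higher (95% CI 1.20 to 1.76, adjusted p = 0.0223) with siALKBH5#1, and the call for siALKBH5#1 was lost (adjusted p 0.057 to 0.0771) without any 1 of its own 3 arrays or without replicate 3 of siControl. CTSB (cathepsin B, an endopeptidase and dipeptidase) had intensities of 19236, 19106 and 16902 with siALKBH5#3, 16179, 15517 and 15525 with siALKBH5#1 and 11119.7, 12519.6 and 10915 with siControl. All 6 knockdown arrays lay above the 3 siControl arrays. CTSB was 1.60-fold higher (95% CI 1.35 to 1.90, adjusted p = 0.00188) with siALKBH5#3 and 1.37-fold higher (95% CI 1.15 to 1.63, adjusted p = 0.0313) with siALKBH5#1. The siALKBH5#1 call was lost without any 1 of its own arrays or without replicate 1 or 3 of siControl (adjusted p 0.0705 to 0.0949), after quantile normalization (0.0547) and in a fit to both groups alone (0.0618).

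CTSS (cathepsin S, known for cutting the invariant chain in antigen-presenting cells; chr1:150730188-150765778) had the largest change among the proteases with siALKBH5#1. Its intensities were 431, 426 and 355 with siALKBH5#3, 138, 158 and 104 with siALKBH5#1 and 462, 333 and 366 with siControl. With siALKBH5#1 every array lay below those of the other groups, 2.91-fold lower (95% CI 2.24 to 3.79, adjusted p = 0.00024), whereas siALKBH5#3 overlapped siControl with a log2 fold change of 0.07 (95% CI -0.31 to 0.45, adjusted p = 0.835). Summed over the 11 immune markers, intensity was 504.86 to 571.8 with siALKBH5#3, 507.12 to 535.43 with siALKBH5#1 and 553.96 to 626.13 with siControl, and CD14 was the 1 of them called, lower with siALKBH5#1. All cultures were of 1 cell line, and 10 of these 11 markers lay under the median cluster in each group. The cause of the CTSS difference was not tested. CTSL (cathepsin L, an endopeptidase) had intensities of 2815, 2878 and 2794 with siALKBH5#3, 5168, 5192 and 4788 with siALKBH5#1 and 3469, 3171 and 3277 with siControl. It was 1.53-fold higher (95% CI 1.30 to 1.79, adjusted p = 0.00448) with siALKBH5#1. All 3 siALKBH5#3 arrays lay below siControl, but that difference was not called, with a log2 fold change of -0.22 (95% CI -0.46 to 0.01, adjusted p = 0.186).

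The remaining calls among the proteases were made with siALKBH5#3. CTSZ (cathepsin Z, a carboxypeptidase) had intensities of 24705, 23235 and 22345 with siALKBH5#3, 15224, 15513 and 15691 with siALKBH5#1 and 13091, 15494 and 14049.9 with siControl. It was 1.65-fold higher (95% CI 1.39 to 1.96, adjusted p = 0.00117) with siALKBH5#3, while siALKBH5#1 overlapped siControl, with a log2 fold change of 0.13 (95% CI -0.12 to 0.37, adjusted p = 0.55). CTSC (cathepsin C, a dipeptidyl peptidase that activates serine proteases) had intensities of 8567, 7808 and 7865 with siALKBH5#3, 11719.9, 12408 and 11573 with siALKBH5#1 and 12688, 11975 and 11459 with siControl. It was 1.49-fold lower (95% CI 1.26 to 1.76, adjusted p = 0.00378) with siALKBH5#3, and siALKBH5#1 again overlapped siControl, with -0.02 (95% CI -0.25 to 0.22, adjusted p = 0.949). CTSD, CTSA and TPP1 were not called. CTSD (cathepsin D, the main aspartic protease) had intensities of 45623, 41771 and 43263 with siALKBH5#3, 52727, 52458 and 49938 with siALKBH5#1 and 44453, 40313 and 39629 with siControl. All siALKBH5#1 arrays lay above the other groups, and the log2 fold changes were 0.07 (95% CI -0.17 to 0.31, adjusted p = 0.719) with siALKBH5#3 and 0.32 (95% CI 0.08 to 0.56, adjusted p = 0.0957) with siALKBH5#1. CTSA (a serine carboxypeptidase that also protects other enzymes) had intensities of 19397, 22985 and 22302 with siALKBH5#3, 19790.4, 18814 and 16293 with siALKBH5#1 and 19349.8, 17740.2 and 14068 with siControl. The siALKBH5#3 arrays lay just above siControl and siALKBH5#1 overlapped it, with log2 fold changes of 0.35 (95% CI 0.03 to 0.66, adjusted p = 0.133) and 0.11 (95% CI -0.21 to 0.43, adjusted p = 0.705). TPP1 (a tripeptidyl peptidase) had intensities of 1679, 1773 and 1468 with siALKBH5#3, 1544, 1662 and 2073 with siALKBH5#1 and 2103, 2128 and 2372 with siControl. All 6 knockdown arrays lay below siControl, with log2 fold changes of -0.43 (95% CI -0.73 to -0.13, adjusted p = 0.0567) for siALKBH5#3 and -0.33 (95% CI -0.63 to -0.03, adjusted p = 0.171) for siALKBH5#1. Without replicate 3 of siALKBH5#1 in the shared fit, the siALKBH5#3 difference of TPP1 was called (adjusted p = 0.04), and so it was after quantile normalization (0.0247), with trend and robust prior (0.0171), with dim clusters left out (0.0225) and with the offset (0.0317). The siALKBH5#1 difference of CTSD was called under the last 3 of these settings (0.00224 to 0.0334), and the siALKBH5#3 difference of CTSA with trend and robust prior (0.0213).

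**Figure D2:**
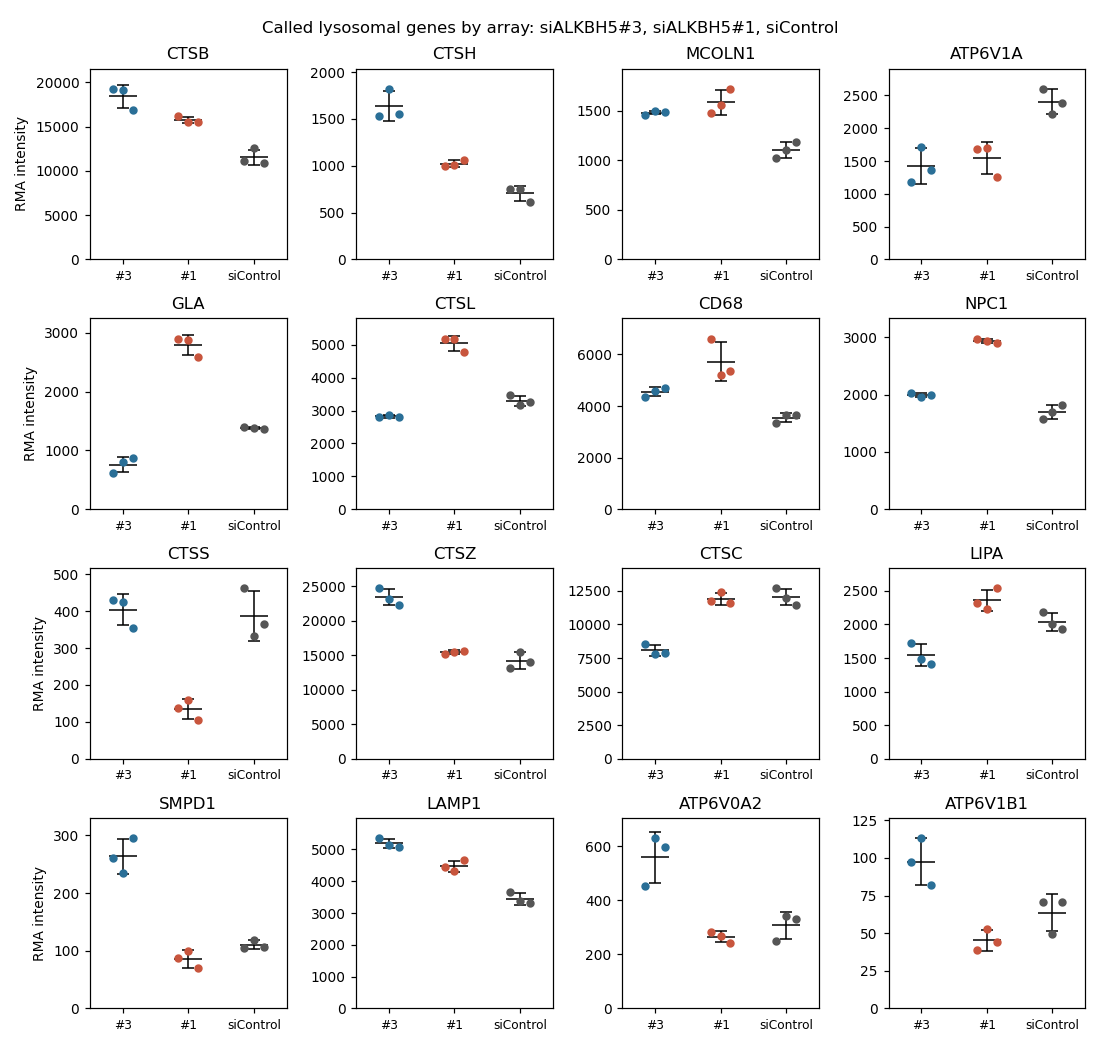
RMA intensity (y axis, linear from 0) of the 16 lysosomal genes called with at least 1 siRNA, on each array of siALKBH5#3 (blue), siALKBH5#1 (red) and siControl (grey), with the group mean and SD (n = 3). CTSB, CTSH and MCOLN1 lie above siControl and ATP6V1A below it with both siRNAs, and GLA lies below siControl with siALKBH5#3 and above it with siALKBH5#1.

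Among the 10 non-protease hydrolases, PSAP included, 1 was higher and 2 lower with siALKBH5#3, and 1 was higher with siALKBH5#1. These made 30% and 10% called, against 15.8% and 8.07% of all clusters. All 10 lay at or above the median level, where 26.6% and 13.3% of clusters were called, so that neither share stood far above that background. GLA (alpha-galactosidase A, which removes terminal galactose from glycolipids and is deficient in Fabry disease; chrX:101397803-101407925) moved in opposite directions. Its intensities were 610.2, 802 and 861 with siALKBH5#3, 2899.6, 2885 and 2590.3 with siALKBH5#1 and 1391, 1378 and 1371 with siControl. The siControl arrays lay close together, below every siALKBH5#1 array and above every siALKBH5#3 array. GLA was 1.84-fold lower (95% CI 1.49 to 2.27, adjusted p = 0.00123) with siALKBH5#3 and 2.02-fold higher (95% CI 1.64 to 2.49, adjusted p = 0.000906) with siALKBH5#1. SMPD1 (acid sphingomyelinase, which makes ceramide; chr11:6390474-6394996) had intensities of 261, 235 and 295 with siALKBH5#3, 87.0, 100.4 and 70.3 with siALKBH5#1 and 105, 119 and 107 with siControl. It was 2.38-fold higher (95% CI 1.90 to 2.97, adjusted p = 0.000194) with siALKBH5#3. All siALKBH5#1 arrays lay under the siControl arrays, but the difference was not called, with a log2 fold change of -0.38 (95% CI -0.70 to -0.05, adjusted p = 0.147). LIPA (lysosomal acid lipase, which frees cholesterol from its esters) had intensities of 1723, 1482 and 1409.6 with siALKBH5#3, 2312, 2231 and 2536 with siALKBH5#1 and 2192, 1999 and 1935 with siControl. It was 1.33-fold lower (95% CI 1.11 to 1.60, adjusted p = 0.039) with siALKBH5#3. That call was lost (adjusted p 0.0517 to 0.132) without replicate 1 or 2 of siALKBH5#1, 2 or 3 of siALKBH5#3, or 1 or 2 of siControl, and in a fit to both groups alone (0.0684). With siALKBH5#1 its log2 fold change was 0.21 (95% CI -0.06 to 0.47, adjusted p = 0.337).

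ASAH1 (acid ceramidase, which splits ceramide), HEXA (a subunit of beta-hexosaminidase) and PSAP (the precursor of the saposins, which present lipids to hydrolases) were not called against siControl. PSAP had intensities of 24714, 29503 and 24913 with siALKBH5#3, 21145, 22187 and 21509 with siALKBH5#1 and 22201, 18541 and 19747 with siControl. All siALKBH5#3 arrays lay above siControl, with a log2 fold change of 0.39 (95% CI 0.12 to 0.65, adjusted p = 0.0505). It was 0.10 (95% CI -0.16 to 0.37, adjusted p = 0.662) with siALKBH5#1. Without replicate 1 of siControl PSAP was called with siALKBH5#3 (adjusted p = 0.0445), as it was with trend and robust prior (0.0018), with dim clusters left out (0.0172) and with the offset (0.0201). ASAH1 had intensities of 5473, 4838 and 5203 with siALKBH5#3, 3248, 3562 and 2723 with siALKBH5#1 and 5901, 4378 and 3962 with siControl. Here siALKBH5#1 lay below the rest, with a log2 fold change of -0.57 (95% CI -0.92 to -0.22, adjusted p = 0.0513), and siALKBH5#3 overlapped siControl, with 0.14 (95% CI -0.21 to 0.49, adjusted p = 0.613). The siALKBH5#1 difference was called without replicate 3 of siControl (adjusted p = 0.0302), after quantile normalization (0.0368), with trend and robust prior (0.00541), with dim clusters left out (0.0217) and with the offset (0.0337). HEXA had intensities of 3032, 2946 and 2792 with siALKBH5#3, 3860.4, 3662 and 4539.8 with siALKBH5#1 and 2696, 3181 and 3063 with siControl. All siALKBH5#1 arrays lay above the other groups, and the log2 fold changes were -0.03 (95% CI -0.30 to 0.25, adjusted p = 0.922) with siALKBH5#3 and 0.43 (95% CI 0.16 to 0.70, adjusted p = 0.0552) with siALKBH5#1. GUSB (beta-glucuronidase) and MAN2B1 (alpha-mannosidase) also had all siALKBH5#1 arrays above siControl, at log2 fold changes of 0.65 (adjusted p = 0.0664) and 0.46 (adjusted p = 0.0706). MAN2B1 was called without replicate 1 of siALKBH5#1 (adjusted p = 0.0441). With dim clusters left out HEXA, GUSB and MAN2B1 were all called with siALKBH5#1 (adjusted p = 0.0196, 0.0324 and 0.029). NAGLU (which acts on heparan sulfate) and GAA (which digests glycogen) had log2 fold changes of 0.08 and 0.25 with siALKBH5#3 and of 0.40 and 0.10 with siALKBH5#1.

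Of 7 membrane and lipid transfer proteins, 2 were higher with siALKBH5#3 (28.6%) and 3 with siALKBH5#1 (42.9%), against 8.72% and 4.51% of all clusters. None was lower, against 7.04% and 3.56% of all clusters. All 7 lay at or above the median level, where 26.6% and 13.3% of clusters were called in either direction. MCOLN1 (the calcium channel TRPML1 of the lysosomal membrane) had intensities of 1460.0, 1491 and 1483 with siALKBH5#3, 1474, 1556 and 1718 with siALKBH5#1 and 1023, 1099.8 and 1183 with siControl. All 6 knockdown arrays lay above siControl, and the siRNAs overlapped. MCOLN1 was 1.34-fold higher (95% CI 1.13 to 1.60, adjusted p = 0.0247) with siALKBH5#3 and 1.44-fold higher (95% CI 1.21 to 1.71, adjusted p = 0.016) with siALKBH5#1. The siALKBH5#3 call was lost without any 1 of its own arrays or without replicate 1 or 2 of siControl (adjusted p 0.0568 to 0.0789) and after quantile normalization (0.0505), and the siALKBH5#1 call without its own replicate 3 or replicate 1 of siControl (0.0548 to 0.0665). LAMP1 (the main glycoprotein of the lysosomal membrane) had intensities of 5356, 5138 and 5086 with siALKBH5#3, 4438, 4308 and 4664 with siALKBH5#1 and 3671, 3374 and 3304 with siControl. The 3 groups did not overlap. LAMP1 was 1.51-fold higher (95% CI 1.28 to 1.77, adjusted p = 0.00299) with siALKBH5#3, and with siALKBH5#1 its log2 fold change was 0.37 (95% CI 0.14 to 0.61, adjusted p = 0.0537). That difference was called with trend and robust prior (0.00853), with dim clusters left out (0.0159) and with the offset (0.0139).

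NPC1 (which moves cholesterol out of lysosomes) had intensities of 2023, 1950.0 and 1999.7 with siALKBH5#3, 2975, 2941 and 2904 with siALKBH5#1 and 1573, 1689.6 and 1818 with siControl. It was 1.74-fold higher (95% CI 1.48 to 2.05, adjusted p = 0.000881) with siALKBH5#1, with all 3 arrays above the other groups. With siALKBH5#3 its arrays also lay above siControl, with a log2 fold change of 0.24 (95% CI 0.00 to 0.47, adjusted p = 0.169). CD68 (a heavily glycosylated protein of the LAMP family, rich in macrophages) had intensities of 4364, 4591 and 4701 with siALKBH5#3, 6613, 5215 and 5352 with siALKBH5#1 and 3354, 3648 and 3652 with siControl. The groups did not overlap. CD68 was 1.60-fold higher (95% CI 1.33 to 1.93, adjusted p = 0.00565) with siALKBH5#1, and its log2 fold change was 0.36 (95% CI 0.09 to 0.63, adjusted p = 0.0712) with siALKBH5#3, called with trend and robust prior (0.0146), with dim clusters left out (0.0264) and with the offset (0.032). No immune marker was called higher with either siRNA. LAMP2, CD63 and SCARB2 were not called. LAMP2 (a LAMP1 relative with a part in autophagy) had intensities of 7962, 7484 and 8548 with siALKBH5#3, 7577, 6849 and 6924 with siALKBH5#1 and 7560.5, 7545 and 6824 with siControl. CD63 (a tetraspanin) had intensities of 6670.4, 6727 and 7068 with siALKBH5#3, 5886, 5896 and 6378 with siALKBH5#1 and 6919, 6903 and 5214 with siControl. SCARB2 (the receptor that brings glucocerebrosidase to lysosomes) had intensities of 553, 677 and 549.5 with siALKBH5#3, 557, 531 and 499 with siALKBH5#1 and 410.1, 589.9 and 442 with siControl. In each of these 3 genes both siRNAs overlapped siControl, and the log2 fold changes ran between -0.06 (CD63, siALKBH5#1) and 0.32 (SCARB2, siALKBH5#3). SCARB2 was called with siALKBH5#3 without replicate 2 of siControl (adjusted p = 0.0488).

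TFEB itself was among the dimmest clusters, at the 2.378 to 11.75 percentile of each array. Its intensities were 12.2, 13.9 and 11.0 with siALKBH5#3, 13.7, 10.2 and 10.5 with siALKBH5#1 and 9.56, 9.91 and 11.0 with siControl. The groups overlapped, and the log2 fold changes were 0.28 (95% CI -0.04 to 0.60, adjusted p = 0.223) with siALKBH5#3 and 0.17 (95% CI -0.15 to 0.49, adjusted p = 0.538) with siALKBH5#1. A signal this low gives little room to see a fall, and the array reads neither the protein nor its place in the cell.

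Promoters of 33 of the 46 genes were found in RefSeq (GRCh38.p14) as 300 bases, 250 before the start of the gene and 50 after it, and searched on both strands for CACGTG and for the longer TCACGTG, which contains it. CACGTG occurred in 10 of 33 (30.3%), against 2548 of 35116 promoters in the whole set (7.26%), and TCACGTG in 9 (27.3%), against 1303 (3.71%). The sets are unlike: 1 promoter was taken for each lysosomal gene, and the whole set holds every promoter, not matched by expression or kind of gene. TCACGTG occurred once or more in CTSA, CTSD, GAA, LAMP1, MCOLN1, ATP6V0B, ATP6V0D1, ATP6V0E2 and ATP6V1G1, and CD63 held CACGTG without the T. LAMP1 held 6 of the 19 sites. Of the 9 genes with TCACGTG, 2 were called with at least 1 siRNA, and of the 24 searched without it, 11, against 20.5% of all clusters. Whether calls differ by the motif was not tested. The sites are shown for both of the called genes, in LAMP1 those nearest the start, and for GAA and CTSD, which were not called, to show that the same letters stand in both kinds. Capitals mark CACGTG, and the number in brackets is the position of its first base from the start of the gene.
MCOLN1 (-41, chr19:7522571-7522600, plus strand): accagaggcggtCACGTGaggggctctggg
MCOLN1 (-14, chr19:7522598-7522627, plus strand): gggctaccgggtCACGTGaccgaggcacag
LAMP1 (-28, chr13:113297199-113297228, plus strand): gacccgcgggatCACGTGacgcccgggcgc
LAMP1 (-1, chr13:113297226-113297255, plus strand): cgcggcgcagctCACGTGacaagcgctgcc
GAA (-31, chr17:80101538-80101567, plus strand): gctcccgccggtCACGTGacccgcctctgc
CTSD (-47, chr11:1763957-1763986, minus strand): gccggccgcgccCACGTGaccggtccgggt
A match is only a run of letters in this window. In these 6 sites the base before the capitals or the complement of the base after them gives the T.

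Subunits of the proton pump were called at about the share of all clusters, and below the share of clusters at or above the median level. Of 19 subunits, 3 were called with siALKBH5#3 (15.8%), 2 higher and 1 lower, and 1 with siALKBH5#1 (5.26%), lower, against 15.8% and 8.07% of all clusters. Among clusters at or above the median level 26.6% and 13.3% were called. Below that level lay ATP6V0D2, ATP6V1B1, ATP6V1C2, ATP6V1G2 and ATP6V1G3, of which only ATP6V1B1 was called, with siALKBH5#3. Of the brighter subunits, ATP6V0A2 and ATP6V1A were called with siALKBH5#3 and ATP6V1A with siALKBH5#1. The median log2 fold change was -0.02 with siALKBH5#3 and 0.06 with siALKBH5#1. ATP6V1A (the catalytic A subunit of V1, which hydrolyses ATP; chr3:113747035-113812056) had intensities of 1183, 1720.2 and 1359 with siALKBH5#3, 1684, 1697 and 1258 with siALKBH5#1 and 2599, 2218 and 2390.5 with siControl. All 6 knockdown arrays lay below siControl, and the siRNAs overlapped. It was 1.71-fold lower (95% CI 1.33 to 2.19, adjusted p = 0.0075) with siALKBH5#3 and 1.56-fold lower (95% CI 1.22 to 2.01, adjusted p = 0.0332) with siALKBH5#1. The siALKBH5#1 call was lost without any 1 of the 3 siALKBH5#1 or 3 siControl arrays (adjusted p 0.0529 to 0.119). The B subunits, which bind ATP without splitting it, are encoded by a pair of genes. ATP6V1B1, the form of kidney and inner ear, had intensities of 97.6, 113 and 81.9 with siALKBH5#3, 39.1, 52.8 and 44.1 with siALKBH5#1 and 70.8, 49.4 and 70.6 with siControl. It was 1.54-fold higher (95% CI 1.18 to 2.02, adjusted p = 0.0339) with siALKBH5#3, a call lost without its own replicate 1 or 2 or replicate 2 of siControl (adjusted p 0.0855 to 0.13), and its cluster lay near the middle of the array, at a mean percentile of 43.6. ATP6V1B2, the broadly expressed form, had intensities of 1226, 996 and 887 with siALKBH5#3, 1834, 1705 and 1738 with siALKBH5#1 and 1089.8, 1293 and 1604 with siControl. Against siControl it was not called, with log2 fold changes of -0.35 (95% CI -0.70 to -0.00, adjusted p = 0.166) and 0.42 (95% CI 0.07 to 0.77, adjusted p = 0.135) for siALKBH5#3 and siALKBH5#1.

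In the V0 sector 1 of 7 genes was called. ATP6V0A2 (an a subunit known for its place in the Golgi and endosomes) had intensities of 453, 631 and 596 with siALKBH5#3, 285, 267 and 244 with siALKBH5#1 and 251, 342 and 332 with siControl. It was 1.82-fold higher (95% CI 1.42 to 2.32, adjusted p = 0.00355) with siALKBH5#3, and siALKBH5#1 overlapped siControl, with a log2 fold change of -0.21 (95% CI -0.56 to 0.14, adjusted p = 0.485). ATP6V0C (the proteolipid c subunit of the rotating ring) had intensities of 55901, 50410.1 and 53012 with siALKBH5#3, 64128, 66380.1 and 59941 with siALKBH5#1 and 58452, 53471 and 59219 with siControl. All siALKBH5#1 arrays lay above the other groups, with log2 fold changes of -0.10 (95% CI -0.34 to 0.14, adjusted p = 0.595) and 0.15 (95% CI -0.09 to 0.40, adjusted p = 0.447) for siALKBH5#3 and siALKBH5#1, and cross-hybridisation from related copies of this gene was not tested. ATP6V0E1 (a small membrane subunit) had intensities of 73528, 70494 and 76847 with siALKBH5#3, 73563, 78954 and 71569.6 with siALKBH5#1 and 64545, 55796 and 61241 with siControl. All 6 knockdown arrays lay above siControl, with log2 fold changes of 0.28 (95% CI 0.04 to 0.53, adjusted p = 0.113) and 0.30 (95% CI 0.06 to 0.55, adjusted p = 0.122). Both differences were called with trend and robust prior (0.00318 and 0.00325), with dim clusters left out (0.0422 and 0.0467) and with the offset (0.0436 and 0.0478). ATP6V0D1 (which links ring and stalk) had intensities of 15983, 16788 and 18745 with siALKBH5#3, 14908, 13096 and 13543 with siALKBH5#1 and 18275, 17849.5 and 16049.8 with siControl. Here siALKBH5#1 lay below both other groups, with log2 fold changes of -0.02 (95% CI -0.28 to 0.24, adjusted p = 0.939) with siALKBH5#3 and -0.33 (95% CI -0.59 to -0.07, adjusted p = 0.116) with siALKBH5#1. The siALKBH5#1 difference was called with trend and robust prior (0.012) and with dim clusters left out (0.0457).

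Other V1 subunits were not called against siControl. ATP6V1F had intensities of 9216, 8408 and 8040.4 with siALKBH5#3, 11649, 11758 and 10882 with siALKBH5#1 and 11663, 10687 and 10263 with siControl. All siALKBH5#3 arrays lay below siControl, with a log2 fold change of -0.35 (95% CI -0.59 to -0.10, adjusted p = 0.0597), called after quantile normalization (0.0471), with trend and robust prior (0.005), with dim clusters left out (0.0193) and with the offset (0.0195), and siALKBH5#1 overlapped siControl, with 0.07 (95% CI -0.17 to 0.32, adjusted p = 0.751). ATP6V1G1 (a stalk subunit) had intensities of 3263, 3203 and 2902 with siALKBH5#3, 3583, 3738 and 3445 with siALKBH5#1 and 3498, 3279.9 and 3547 with siControl. All siALKBH5#3 arrays lay below siControl and siALKBH5#1 overlapped it, with log2 fold changes of -0.14 (95% CI -0.38 to 0.10, adjusted p = 0.437) and 0.06 (95% CI -0.18 to 0.30, adjusted p = 0.791) for siALKBH5#3 and siALKBH5#1. ATP6V1C1 (which joins the sectors when the pump assembles) had intensities of 2463, 2659 and 2769.7 with siALKBH5#3, 2459.5, 2451 and 2812 with siALKBH5#1 and 2953, 2563 and 2229.9 with siControl. Its groups overlapped, at 0.03 (95% CI -0.25 to 0.32, adjusted p = 0.899) and 0.00 (95% CI -0.28 to 0.29, adjusted p = 0.993). ATP6V0B, ATP6V0E2, ATP6V1D, ATP6V1E1 and ATP6V1H were not called either, with log2 fold changes of 0.18, -0.12, -0.01, 0.16 and 0.09 with siALKBH5#3 and of 0.33, 0.20, -0.12, 0.14 and 0.19 with siALKBH5#1. The siALKBH5#1 difference of ATP6V0B was called with trend and robust prior (0.0212), with dim clusters left out (0.0325) and with the offset (0.032). Subunit forms known from other tissues, ATP6V0D2, ATP6V1C2, ATP6V1G2 and ATP6V1G3, lay under the median cluster, at mean percentiles of 17.1, 13, 25.7 and 44.5, and their groups overlapped. Of the genes not called, the 95% confidence interval lay within 1.5-fold of no change for 23 of 34 with siALKBH5#3 and for 22 of 37 with siALKBH5#1.

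**Figure D3:**
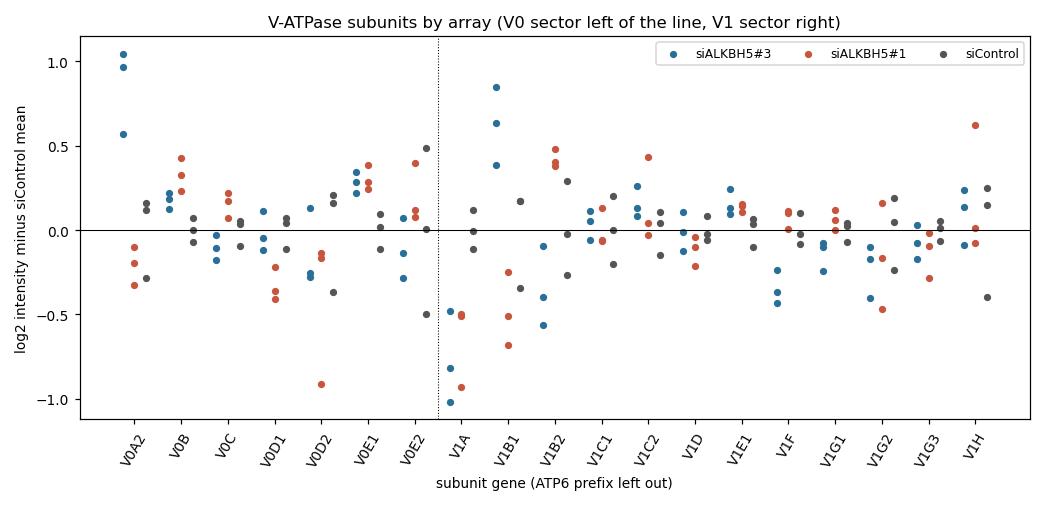
Log2 intensity of the 19 V-ATPase subunits on each array minus the siControl mean of that gene (y axis), by subunit gene (x axis), for siALKBH5#3 (blue), siALKBH5#1 (red) and siControl (grey). ATP6V1A lies below siControl on all 6 knockdown arrays, and ATP6V0B, ATP6V0E1 and ATP6V1E1, which were not called, lie above it on all 6. ATP6V0A2 and ATP6V1B1 lie above siControl with siALKBH5#3. Some other uncalled subunits lie apart from siControl with 1 siRNA, such as ATP6V1F and ATP6V1G1 below it with siALKBH5#3.

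Between siALKBH5#3 and siALKBH5#1, 17 of 46 genes were called (37%), 7 higher and 10 lower with siALKBH5#3, against 19.1% of all clusters (9.55% higher, 9.55% lower), and of the 40 genes at or above the median level 16 were called (40%), against 33.4% of such clusters. The test compares the 6 knockdown arrays and uses siControl only for the shared spread. Of the 10 non-protease hydrolases, PSAP included, 7 were called, of the 9 proteases 5, of the 7 membrane proteins 1 and of the 19 pump subunits 4. GLA differed most: it was 3.72-fold lower (95% CI 3.02 to 4.58, adjusted p = 2.68e-06) with siALKBH5#3. SMPD1 was 3.09-fold higher (95% CI 2.47 to 3.86, adjusted p = 1.52e-05) and CTSS 3.06-fold higher (95% CI 2.35 to 3.98, adjusted p = 5.32e-05). Of the pump, ATP6V1B1 was 2.15-fold higher (95% CI 1.64 to 2.81, adjusted p = 0.000966) and ATP6V0A2 2.09-fold higher (95% CI 1.64 to 2.67, adjusted p = 0.000601) with siALKBH5#3. In all 17 genes the arrays of 1 siRNA lay wholly above those of the other. The calls rest on the same values, and the share of all clusters that separate this way was not counted.

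With siALKBH5#3 relative to siALKBH5#1, ASAH1 was 1.64-fold higher (adjusted p = 0.00788). HEXA was 1.37-fold lower (adjusted p = 0.0226), LIPA 1.54-fold lower (adjusted p = 0.00337) and NPC1 1.48-fold lower (adjusted p = 0.00289). Also lower were MAN2B1, 1.46-fold lower (adjusted p = 0.0171), and GUSB, 1.56-fold lower (adjusted p = 0.04). Among the cathepsins CTSH was 1.60-fold higher (adjusted p = 0.00249) and CTSZ 1.51-fold higher (adjusted p = 0.00256), whereas CTSL was 1.78-fold lower (adjusted p = 0.000185) and CTSC 1.47-fold lower (adjusted p = 0.0032). ATP6V1B2 was 1.71-fold lower (adjusted p = 0.00464) and ATP6V1F 1.34-fold lower (adjusted p = 0.0213) with siALKBH5#3.

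Calls of 4 of these genes were lost on leaving out 1 array. HEXA lost its call without replicate 3 of siALKBH5#1 or replicate 2 or 3 of siALKBH5#3 (adjusted p 0.0624 to 0.0927), and MAN2B1 without replicate 2 or 3 of siALKBH5#1 or replicate 1 of siALKBH5#3 (0.0632 to 0.0724). GUSB lost it without replicate 1 or 3 of siALKBH5#3, 1 or 2 of siALKBH5#1 or 2 of siControl (0.0501 to 0.147), and ATP6V1F without replicate 2 or 3 of siALKBH5#3 or 1 or 2 of siALKBH5#1 (0.0675 to 0.0847). The genes called against siControl with both siRNAs in the same direction were not called here, apart from CTSH. For the other 3 the log2 fold changes of siALKBH5#3 over siALKBH5#1 were 0.22 (95% CI -0.02 to 0.47, adjusted p = 0.219) for CTSB, -0.10 (95% CI -0.34 to 0.15, adjusted p = 0.651) for MCOLN1 and -0.13 (95% CI -0.48 to 0.23, adjusted p = 0.687) for ATP6V1A. Of 29 genes not called, 24 had a confidence interval within 1.5-fold of no difference.

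**Figure D4:**
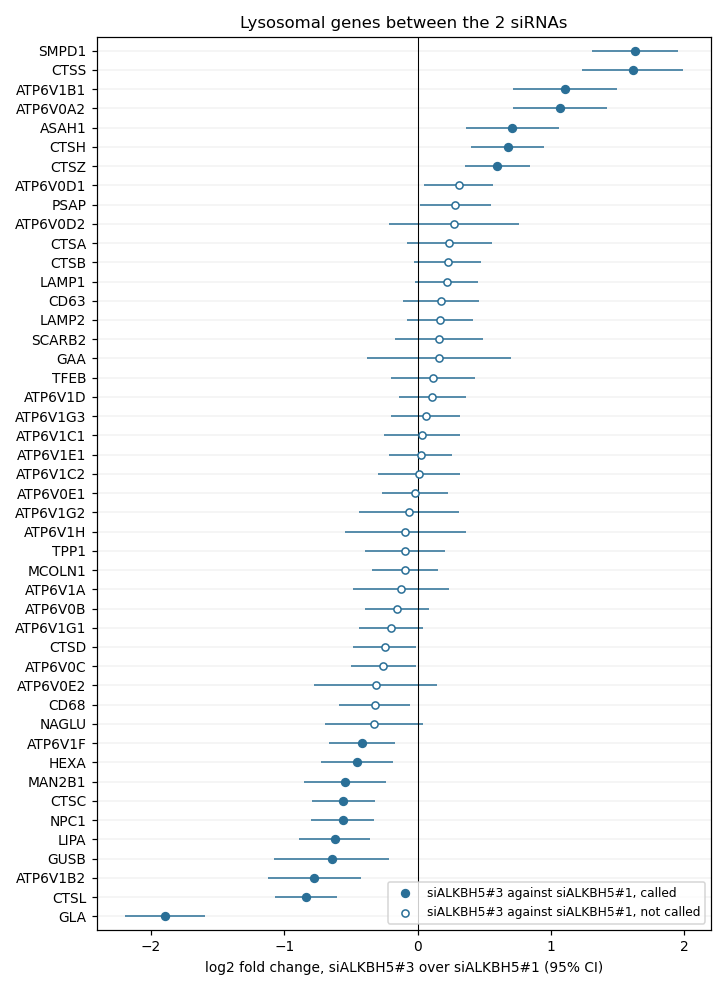
Log2 fold change of siALKBH5#3 over siALKBH5#1 (x axis) with 95% confidence interval for each of the 46 lysosomal genes, ordered by size and filled where called. SMPD1, CTSS, ATP6V1B1 and ATP6V0A2 lead the 7 genes higher with siALKBH5#3, and GLA leads the 10 genes lower with it.

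Other genes of the pathway were counted in the same fit, and values in brackets after a log2 fold change are adjusted p. Of 31 further lysosomal hydrolases and cofactors, 6 were higher and 4 lower with siALKBH5#3 and 2 were higher and 1 lower with siALKBH5#1. That is, 32.3% and 9.68% were called, against 15.8% and 8.07% of all clusters. Among clusters at or above the median level 26.6% and 13.3% were called. None of the further lists was split by level, so the part of brightness in their shares was not tested. DPP7, a dipeptidyl peptidase, was higher with both, with log2 fold changes of 1.14 (adjusted p = 0.000278) with siALKBH5#3 and 0.53 (0.0394) with siALKBH5#1, and SIAE, a sialic acid esterase, was lower with both, at -0.66 (0.0247) and -0.66 (0.0388). SGSH, a heparan sulfamidase, was higher with siALKBH5#3, at 1.00 (0.00459), and CTSV, the close relative of CTSL, was lower, at -1.02 (0.000212). SCPEP1, a carboxypeptidase, was higher with siALKBH5#1, at 0.90 (0.00151). Of 26 further membrane proteins and transporters, 6 were higher and 3 lower with siALKBH5#3 and 2 were higher and 1 lower with siALKBH5#1 (34.6% and 11.5% called). LAPTM5, known mainly from blood cells, was lower with siALKBH5#3, at -1.07 (0.000216), and higher with siALKBH5#1, at 0.52 (0.0297). SLC29A3, a nucleoside transporter, did the reverse, at 0.41 (0.0335) and -0.73 (0.00273). OSTM1, the partner of the chloride exchanger CLCN7, was higher with both, at 0.61 (0.0108) and 0.60 (0.0215).

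Sorting of hydrolases to lysosomes by the mannose 6-phosphate tag had 15 measured genes, of which 5 were higher with siALKBH5#3 and 2 with siALKBH5#1, and none was lower (33.3% and 13.3% called, against 15.8% and 8.07% of all clusters). CLN6, which helps new enzymes leave the endoplasmic reticulum, was higher with both, with log2 fold changes of 0.68 (adjusted p = 0.00513) with siALKBH5#3 and 0.72 (0.00711) with siALKBH5#1. GGA3 and GGA2, adaptors that pick up the tag receptors, were higher with siALKBH5#3, at 0.82 (0.00229) and 0.55 (0.00839), as was NAGPA, which uncovers the tag, at 0.63 (0.0208). VPS29, part of the retromer that recycles the receptors, was higher with siALKBH5#1, at 0.52 (0.0419). Of 12 accessory and assembly factors of the V-ATPase, 2 were higher and 2 lower with siALKBH5#3 and 1 was lower with siALKBH5#1 (33.3% and 8.33% called). VMA21, which assembles V0, was lower with siALKBH5#3, at -0.96 (0.000624), as was the assembly factor DMXL2, at -0.88 (0.00696), while OXR1 was higher, at 0.81 (0.00231), and so was ATP6AP1, at 0.57 (0.00975). NCOA7 was lower with siALKBH5#1, at -0.63 (0.00667).

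Relatives and regulators of TFEB gave 2 genes higher of 21 with siALKBH5#3 and 1 higher and 2 lower with siALKBH5#1 (9.52% and 14.3% called, against 15.8% and 8.07% of all clusters). With siALKBH5#3 these were FNIP2, a partner of folliculin, at a log2 fold change of 1.39 (adjusted p = 0.00094), and RPTOR, the raptor subunit of mTORC1, at 0.84 (0.00162). With siALKBH5#1 PPP3CB, a catalytic subunit of calcineurin, was lower, at -0.95 (0.00164), as was the mTORC1 activator RHEB, at -0.49 (0.0312), and LAMTOR4 was higher, at 0.61 (0.0479). Of 19 genes of lysosome positioning and fusion, 1 was higher and 1 lower with siALKBH5#3 (VPS18 of the HOPS complex at 0.42, adjusted p = 0.0305, and BORCS5 of the BORC complex at -0.49, adjusted p = 0.042), and 1 was higher and 2 lower with siALKBH5#1 (BLOC1S2 of BORC at 0.68, adjusted p = 0.0345, VPS33A of HOPS at -1.12, adjusted p = 0.00311, and the fusion protein VAMP7 at -0.77, adjusted p = 0.00973), which made 10.5% and 15.8% called. Cystatins and other inhibitors of cathepsins had 11 measured genes, 1 higher and 1 lower with siALKBH5#3 and 2 higher and 1 lower with siALKBH5#1 (18.2% and 27.3% called). CST6 was higher with siALKBH5#3, at 1.04 (0.00121), and lower with siALKBH5#1, at -0.73 (0.0174), and CSTB was lower with siALKBH5#3, at -0.60 (0.00463). CST1 and CSTA were higher with siALKBH5#1, at 1.43 (0.00239) and 0.93 (0.0174).

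**Figure D5:**
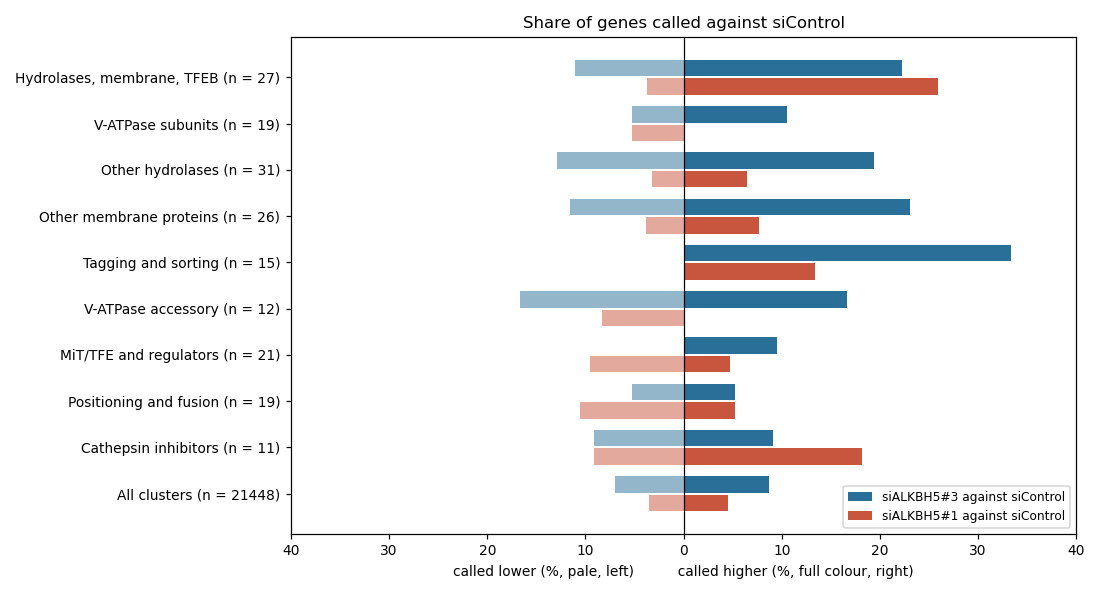
Share of each gene list called higher (right, full colour) or lower (left, pale) than siControl, in percent (x axis), with siALKBH5#3 in blue above siALKBH5#1 in red, and all clusters in the bottom row. Of 27 hydrolases, membrane proteins and TFEB, 6 are higher with siALKBH5#3 and 7 with siALKBH5#1, and of 19 V-ATPase subunits 2 and 0, against 8.72% and 4.51% of all clusters.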

How the data were processed

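Groups and replicates follow the titles of the samples. The values deposited by the authors are linear RMA intensities, with a column for each array. RMA, Affymetrix Expression Console and build hg38 are named in the processing notes of the submitters, and a data analysis tool of the contracted service company in the study's methods, so which step gave the last scaling could not be settled. As RMA brings all arrays to about the same distribution, a change in total RNA per cell is not seen, and changes of weak signals come out too small.

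From 24351 entries, 2903 control probe sets were removed, and every other cluster was tested, on log2 of the intensity. The array annotation gave 17709 clusters 1 symbol and 3739 none, and coordinates and current symbols came from RefSeq (GRCh38.p14). One mean per group was fitted to all 9 arrays with limma 3.58.1 (lmFit, eBayes, two-sided) in R 4.3.3, with 3 contrasts and Benjamini-Hochberg adjustment over all clusters at 0.05. Folds are ratios of geometric means. For arrays, their number limits the precision: 6 residual degrees of freedom with 5.789 from the prior. The procedure was tested on simulated data. The labels give no batch or scan date. Probe sequences were not used, so cross-hybridisation between related genes was not tested.

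The genes, their roles and the further lists were chosen with earlier results of these data known. Values on each array are given for genes called against siControl and for the 3 brightest of each role not called, and of each further list up to 4 called genes per comparison are named. Alternatives were a variance prior with an intensity trend and robust fit together, quantile normalization, median centring, leaving out clusters whose highest group mean lay under the median, an offset of 16 before log2, the replicate number as a block, a fit to both groups alone, each array left out in turn, and the methods' t-test (p under 0.01 and over 1.5-fold, and Benjamini-Hochberg adjusted).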

Additional observations from a re-analysis of the deposited data

Results flagged for a closer look

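For 6 lysosomal genes called against siControl with at least 1 siRNA, the siRNAs lay on opposite sides of the siControl mean on all 6 arrays and the direct test between them passed. The share of all clusters that meet this rule was not counted, so the count is not a result about lysosomal genes. Of all clusters, 19.1% passed the direct test and 1.06% were called against siControl in opposite directions. Log2 fold changes of siALKBH5#3 over siALKBH5#1 were 1.63 for SMPD1, 1.10 for ATP6V1B1 and 1.07 for ATP6V0A2, and they were -0.62 for LIPA, -0.83 for CTSL and -1.90 for GLA. GLA was the 1 gene called against siControl with both, lower with siALKBH5#3 and higher with siALKBH5#1. The siRNAs have different sequences, and residual ALKBH5 intensity averaged 40.5 with siALKBH5#3 and 107 with siALKBH5#1, against 2828 with siControl. The part of either in these differences was not tested.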

How the results depend on the processing

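The direction of all 38 calls, over 46 genes and 3 comparisons, was kept in every refitted limma alternative, and the methods' t-tests were compared by counts only. Of these calls, 11 were lost under at least 1 of up to 16 refitted limma alternatives, and 22 of the other 100 differences gained a call under at least 1. With siALKBH5#1, 9 genes were called as reported, 17 with an intensity trend and robust prior, 18 of 40 with dim clusters left out, 16 with the offset of 16, 5 by the methods' t-test at their threshold and 3 by the same test after Benjamini-Hochberg adjustment. The cause was not tested. The count over all clusters was 1731 as reported and, in the same order, 2604, 2471, 2376, 703 and 324. The 2471 are of the 11111 clusters left, and the other counts are of 21448. The methods' t-test at their threshold called 6 genes with siALKBH5#3 (12 as reported) and 11 between the siRNAs (17 as reported). Over all clusters that test called 1414 (3381 as reported) and 2028 (4097 as reported). With dim clusters left out, 18 genes were called between the siRNAs, as many as with siALKBH5#1, and 4818 of 11111 clusters. With single arrays left out, the counts ran from 9 to 13 with siALKBH5#3 (lowest without its replicate 2), from 5 to 9 with siALKBH5#1 (lowest without its replicate 3), and from 14 to 17 between the siRNAs. Over all clusters they ran from 2320 to 3235, from 1037 to 1723 and from 3110 to 4284, in the same order.

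Replicate numbers did not pair the arrays: deviations of same-numbered arrays correlated at -0.147 to 0.123, and 2 of 9 arrays matched their own number best. With the replicate number as a block, 10 genes were called with siALKBH5#3, 8 with siALKBH5#1 and 17 between the siRNAs, and CTSB with siALKBH5#1 and LIPA and ATP6V1B1 with siALKBH5#3 were no longer called. Over all clusters that fit called 2994, 1430 and 3774, in the same order. Detection calls were not used here, so that a small change in the 6 genes under the median level, TFEB among them, may go unseen.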
